A study of Mus musculus with 4 samples.

Results

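The Ifitm genes encode small membrane proteins, several of which are induced by interferon. The set described here is Ifitm1, Ifitm2, Ifitm3, Ifitm5 and Ifitm6, taken as every probe that carries 1 of these gene names in the scanner files. It holds 5 of 22563 named genes and 6 of 55681 probes: Ifitm1 has 2 probes and each other gene has 1. The set was selected on the measured Ifitm1 signal, chosen by its steadily higher values with JAK2V617F on these same arrays, both with and without the knock-down, and the other genes were added as its family. All values are therefore given as a description.

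Expression was measured in LSK cells (Lineage-c-Kit+Sca-1+), a sorted bone marrow fraction in which stem cells and multipotent progenitors of blood are found. The cells came from lethally irradiated mice that had received E14.5 fetal liver cells of C57B6 background, and all 4 groups share this transplantation. Donor cells were wild type (WT), carried a knock down of TET2 (TET2KD), carried the kinase mutation JAK2V617F as a transgene, or were double mutant. TET2 oxidises 5-methylcytosine in DNA, and JAK2V617F is the activating mutation of myeloproliferative neoplasms. Transplants of WT and of JAK2V617F cells were sampled at 16 weeks, TET2KD transplants earlier, at 10 weeks, and double mutant transplants at 13 weeks. The series gives 5 mice per genotype but 1 array each, and whether the mice were pooled is not given in the sources used here. The promoter of the transgene, the recipients' age and the host cells that remained are not given either.

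IFITM proteins sit in the plasma membrane and in endosomes and hinder the fusion of enveloped viruses with the cell. Interferons induce several of them through STAT factors, and stem cells are known to express some of them without interferon. In the mouse, 5 members lie side by side on chromosome 7 in the order Ifitm5, Ifitm2, Ifitm1, Ifitm3 and Ifitm6, over 67935 bases in RefSeq (GRCm38), with 0 other protein-coding genes between them. Ifitm1 is read in the plus direction and the others in the minus direction.

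The probes of Ifitm1 are annotated within a base of each other, at chr7:148155659-148155718 and chr7:148155658-148155717 (mm9, plus strand). They share an unbroken run of 54 of their 60 bases, so they are not independent readings. Past that run their letters differ at the same annotated positions, so at most 1 probe can match mm9 there, which was not checked. The last 30 bases of each are shown because they hold the end past the shared run, given in capitals:
NM_001112715 probe: ctcaataaagtgcacgtgctgtgaCTTTCT
BC090258 probe: actcaataaagtgcacgtgctgtgaAAAAA
Probes of different members shared at most 8 bases in a row over 14 pairs.

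The start regions of the genes were searched because interferon induces several members, and some members differed with JAK2V617F and others little. RefSeq windows of 300 bases (250 before to 50 after a start site, GRCm38.p6) were found for all 5 members. The core of the interferon-stimulated response element was searched on both strands as GAAA, any 2 bases, GAAA. The STAT-binding GAS element was searched as TTC, any 3 bases, GAA, which reads the same on both strands. Of 32851 windows in the table, 3.44% held the first and 8.3% the second. Ifitm3 held the interferon core at 2 positions, with a GAS match that overlaps the latter of them, and Ifitm2 held the core once. Ifitm6 had 1 GAS match, and Ifitm1 and Ifitm5 had neither. The stretches around the matches follow, with matched letters in capitals:
Ifitm2 (chr7:140955988-140956017, minus strand): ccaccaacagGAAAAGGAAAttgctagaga
Ifitm3 (chr7:141010715-141010744, minus strand): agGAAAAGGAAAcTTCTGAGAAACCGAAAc
Ifitm6 (chr7:141016884-141016913, minus strand): cccatatgaacTTCCTTGAAacaagagctt
The Ifitm2 and Ifitm3 windows shared a run of 13 bases, the longest between any members, which holds the core in both. A match in letters is not a measured site. The RefSeq gene of Ifitm1 begins 647 bases before the start site of its window, and that of Ifitm2 3725 bases before, so transcripts of these genes that start elsewhere were not searched.

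Values below are processed signals in intensity units. Differences are log2 signals, each scaled by subtracting its array's 75th percentile, which lay between 119.8 and 143.5. Each genotype has a single array, hence no replicate and no p-value: "higher" and "lower" describe these arrays. Between 49.4% and 54.7% of spots were well above background, the scanner software's own call. The error that can be given is that of repeated spots within an array, taken from probes of similar brightness (within 1 log2 unit). For Ifitm2 and Ifitm3 it rests on only 4 to 7 such probes per array. For Ifitm1 it rests on 18 to 23 on the WT and TET2KD arrays and on 4 to 6 on the others. It leaves out sorting, amplification and animals. In bulk RNA, more cells of a type and more RNA per cell cannot be told apart. Of 12 LSK and stem cell markers, 11 were above background on every array and Slamf1 on none.

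Ifitm1, which acts mostly at the cell surface, was about equally high on both arrays that carry JAK2V617F and about equally low on the others. On the NM_001112715 probe its signal was 2041 in WT and 1840 in TET2KD, against 7991 in JAK2V617F and 8192 in the double mutant. On the BC090258 probe WT and TET2KD gave 1851 and 1642, against 7368 for JAK2V617F and 7554 for the double mutant. The arrays with and without JAK2V617F thus stood apart on both probes. JAK2V617F exceeded WT by 3.84-fold and 3.90-fold on the probes, a mean log2 difference of 1.95. The double mutant exceeded TET2KD by 3.72-fold and 3.84-fold, a mean of 1.92. A single difference had a repeated-spot SD of 0.08. Ifitm1 was chosen for its rise on both backgrounds, so neither the size nor the likeness of these differences is a test.

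Ifitm1 differed little between arrays with and without the knock-down. TET2KD differed from WT by -0.06 and -0.08 on the probes, within the repeated-spot SD of 0.09, and the gene's value lay between -0.12 and 0.03 under other settings, so its sign is not settled. The double mutant differed from JAK2V617F by -0.10 on both, against an SD of 0.07. The raw signal ran the other way there (8192 against 7991), and the scaled values turn it because the double mutant array was brighter as a whole (75th percentile 143.5 against 130.3). The interaction, which is the JAK2V617F difference with the knock-down less that without it, was -0.03 for Ifitm1 with a repeated-spot SD of 0.11. Ifitm1 was chosen for being alike on both backgrounds, so a value near 0 was fixed by that choice.

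**Figure D1:**
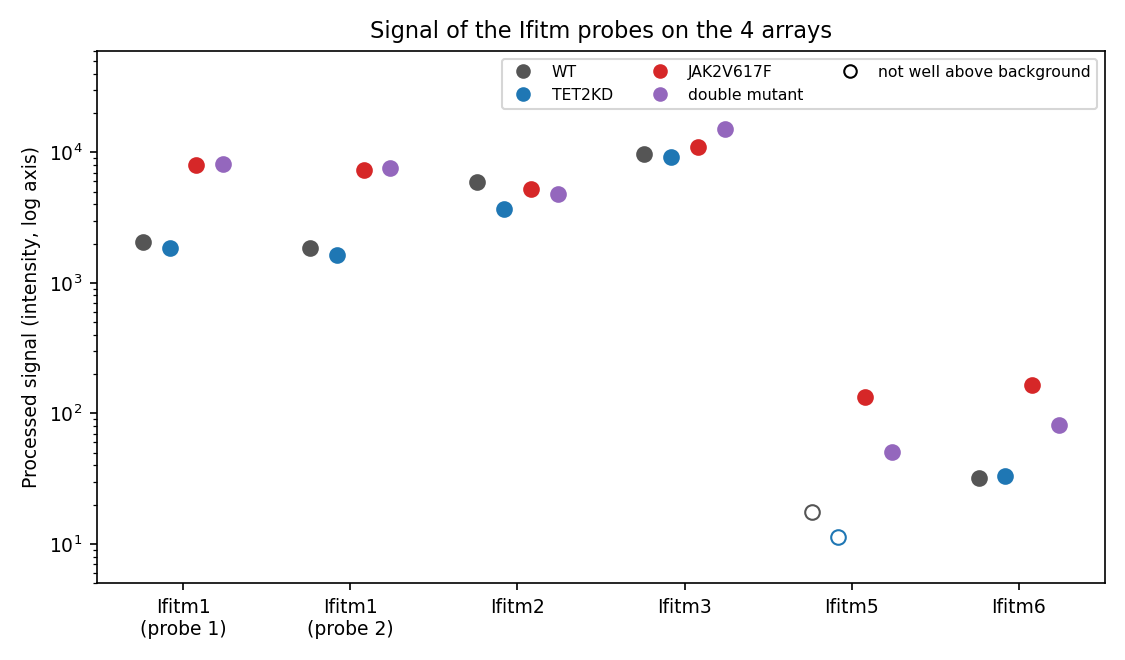
Processed signal of the 6 Ifitm probes (log axis) on the WT, TET2KD, JAK2V617F and double mutant arrays, 1 point per array, with Ifitm3 as the mean of its 10 spots. Open points were not well above background. Ifitm1, Ifitm5 and Ifitm6 are higher on both JAK2V617F arrays than on the other 2, while Ifitm2 runs from 3649 to 5873 and Ifitm3 from 9219 to 15165.

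Ifitm3, the member best known for restricting influenza virus from late endosomes, was bright on every array and differed far less. Its probe (chr7:148195591-148195650, mm9, minus strand) was spotted 10 times per array, which gives the best technical error in the family. The 10 WT spots ran from 9386 to 10033 with a median of 9641. TET2KD spots ran from 8701 to 9475 with a median of 9279. JAK2V617F spots ran from 10471 to 11483 with a median of 11116, and double mutant spots from 14245 to 15684 with a median of 15472. The spots of WT and TET2KD overlapped, those of JAK2V617F lay above both, and those of the double mutant lay above all others.

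After scaling, Ifitm3 averaged 6.25 ± 0.033 in WT (log2, SD over n = 10 spots), 6.27 ± 0.035 in TET2KD, 6.40 ± 0.047 with JAK2V617F alone and 6.72 ± 0.054 in the double mutant. TET2KD differed from WT by 0.01, with values from -0.02 to 0.18 under other settings. The difference of JAK2V617F from WT was 0.15 and that of the double mutant from TET2KD 0.46. The double mutant exceeded WT by 1.39-fold and JAK2V617F by 1.25-fold. These steps are wider than the spread between spots, but no replicate array shows whether they exceed the spread between samples. The quartiles of all genes in JAK2V617F against WT were -0.62 and 0.60, so the Ifitm3 value lies inside them.

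**Figure D2:**
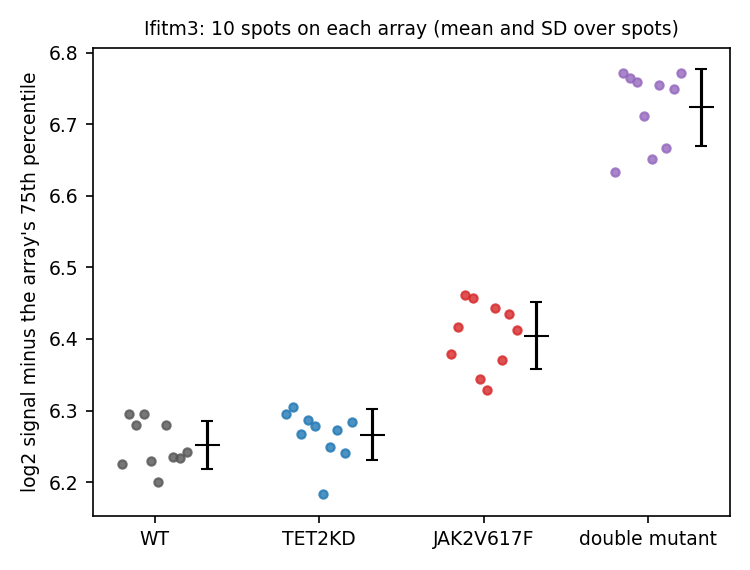
Scaled log2 signal of the 10 spots of the Ifitm3 probe on each array, with the mean and SD over spots beside them. WT (6.20 to 6.30) and TET2KD (6.18 to 6.31) overlap, JAK2V617F lies at 6.33 to 6.46 and the double mutant at 6.63 to 6.77.

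Ifitm2, a close relative of Ifitm3 that also acts in endosomes, was highest in WT. Its probe (chr7:148140881-148140940, mm9, minus strand) gave 5873 in WT, 3649 in TET2KD, 5210 with JAK2V617F alone and 4757 in the double mutant. TET2KD was the lowest array and WT the highest, with both JAK2V617F arrays between them. TET2KD was 1.51-fold lower than WT (log2 -0.59), and the double mutant was 1.21-fold lower than JAK2V617F (log2 -0.27). JAK2V617F differed from WT by -0.20 and the double mutant from TET2KD by 0.12. Each of these exceeds the repeated-spot SD of 0.07, and none reached 2-fold. The interaction was 0.32 for Ifitm2 and 0.30 for Ifitm3, with repeated-spot SDs of 0.10 and 0.11.

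Ifitm6, a member found in the mouse and known from myeloid cells, was dim in WT. Its probe (chr7:148201714-148201773, mm9, minus strand) gave 31.9 in WT, 33.1 in TET2KD, 164.4 with JAK2V617F alone and 81.0 in the double mutant, above background on all 4. JAK2V617F was highest and the double mutant second, and the arrays without JAK2V617F did not differ beyond the spot error (0.14 against an SD of 0.41). JAK2V617F exceeded WT by 5.04-fold (log2 2.33, repeated-spot SD 0.31), and the double mutant exceeded TET2KD by 2.04-fold (log2 1.03, SD 0.33). The double mutant was 2.24-fold lower than JAK2V617F (log2 -1.16, SD 0.19). The interaction was -1.31 with a repeated-spot SD of 0.45. Over 13373 genes the interaction reached 2-fold in either direction for 40.8%.

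Ifitm5, also called Bril, is known from osteoblasts and bone formation rather than from blood. Its probe (chr7:148135949-148136008, mm9, minus strand) gave 17.6 in WT and 11.3 in TET2KD, both not well above background, and 134.6 in JAK2V617F and 50.4 in the double mutant. It was thus measured only with JAK2V617F. For a fold, a dim array was given a floor, which is the weakest signal that still counted as well above background on it, unless the probe's own signal was higher. JAK2V617F then exceeded WT by at least 7.48-fold, and the double mutant exceeded TET2KD by at least 2.43-fold. The double mutant was 2.94-fold lower than JAK2V617F (log2 -1.56, repeated-spot SD 0.24), a difference measured on both sides. Of 10 osteoblast markers, 5 were below background on all 4 arrays (Sp7, Alpl, Col1a1, Dmp1 and Phex). Between 2 and 4 were above background per array, with summed levels, in multiples of the 75th percentile, of 6.7 in WT, 10.6 in TET2KD, 7.2 with JAK2V617F alone and 9.4 in the double mutant. Their part in the Ifitm5 signal was not tested.

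By count, 3 of 5 members were at least 2-fold higher in JAK2V617F than in WT and 0 lower, where 15.5% of 14892 genes were higher. The median of 1.95 (-0.01 over all genes) is Ifitm1's own value, on which the set was chosen. Ifitm5 entered the count only through the arrays where it was high, and with only probes detected in both WT and JAK2V617F the count was 2. Nothing is read from these counts. In the double mutant against TET2KD, 3 of 5 were higher, with a median of 1.03, against 15.8% higher (31.3% apart in either direction) and 0.02 over all genes. The double mutant against WT also had 3 of 5 higher (median 1.17; 15.3% of all genes), and shares the WT array with the first comparison. The same 3 members, Ifitm1, Ifitm5 and Ifitm6, were higher on both backgrounds, a combination met by 4.02% of 13373 genes. Ifitm1 was chosen for this combination and Ifitm5 was detected only on the JAK2V617F arrays, so nothing is read from it. With only probes above background on both arrays the count was 2, on both backgrounds and in the double mutant against TET2KD. At 3-fold the share of all genes was 1.19%. Ifitm1, chosen for its rise on both backgrounds, met it on both, and Ifitm6 did not. Ifitm5 cannot be placed, since its 2.43-fold in the double mutant against TET2KD is a lower bound.

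For the knock-down, 0 of 4 measured members were 2-fold apart in TET2KD against WT (33.4% of all genes were). In the double mutant against JAK2V617F, 2 of 5 were at least 2-fold lower, Ifitm5 and Ifitm6, against 12.7% of all genes lower and 25.0% apart in either direction. With normexp background correction and its offset of 50, Ifitm5 and Ifitm6 kept their direction but lost the 2-fold mark in every comparison that involves the double mutant. Their values there were 0.32 and 0.52 against WT, 0.34 and 0.45 against TET2KD, and -0.88 and -0.76 against JAK2V617F. In JAK2V617F against WT they stayed past 2-fold but were smaller, at 1.20 and 1.28. Ifitm1 stayed between 1.86 and 1.96 in both JAK2V617F comparisons under all 8 other settings.

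**Figure D3:**
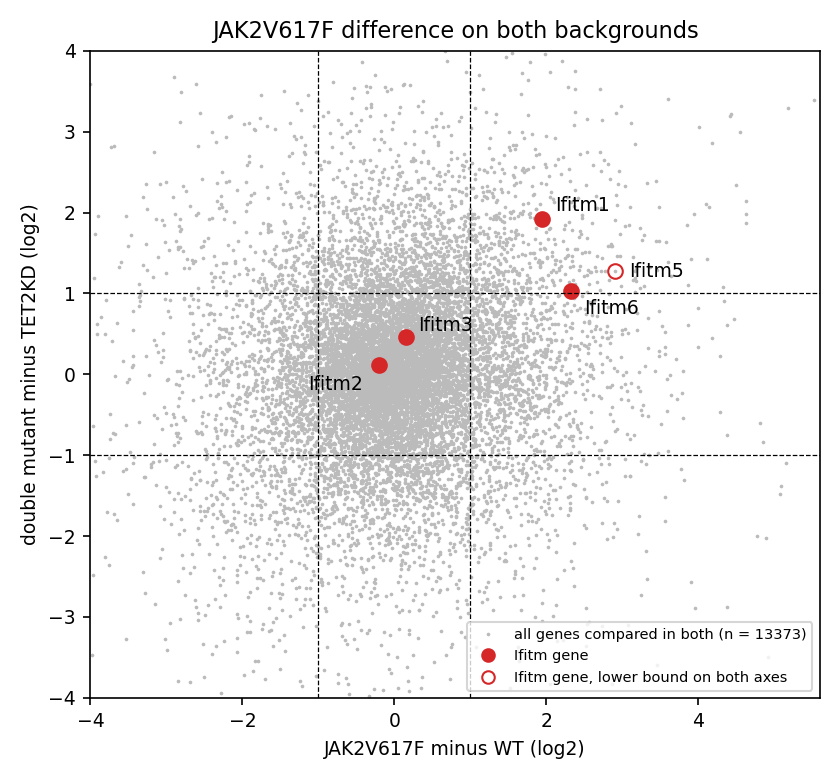
Log2 difference of JAK2V617F from WT (horizontal) against that of the double mutant from TET2KD (vertical) for 13373 genes in grey and the 5 Ifitm genes in red. Dashed lines mark 2-fold, the open circle is a lower bound, and 92 genes lie outside the axes. Ifitm1 lies near 1.9 on both axes, Ifitm5 and Ifitm6 are further right than up, and Ifitm2 and Ifitm3 lie near the centre.

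How far a single probe speaks for its gene can be read from other genes. For 134 pairs of probes that start at most 10 bases apart, the log2 differences of JAK2V617F from WT disagreed by a median of 0.11. For 2705 pairs at least 500 bases apart they disagreed by 0.82, and where the first was 2-fold apart the other had the same direction in 56.5% of 797 pairs. The Ifitm1 probes belong to the first kind and differed by 0.02 from each other (1.94 and 1.96). The values of each member thus describe 1 stretch of its transcript.

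Ifitm genes outside the cluster were measured by 4 further probes. Ifitm7, on chromosome 16, gave 357.5 in WT, 1024 in TET2KD, 465.6 with JAK2V617F alone and 498.1 in the double mutant on its RefSeq-named probe. TET2KD was the only array that stood out, 3.05-fold above WT. A further Ifitm7 probe was within 1.18-fold in all 5 comparisons. Its signals were far higher, at 142361 in WT, 145095 in TET2KD, 127688 with JAK2V617F alone and 147466 in the double mutant. No repeated probe was of similar brightness, so it has no spot error. Ifitm10 was above background only in JAK2V617F and the double mutant on 1 of its 2 probes, with signals of 23.0 and 17.5 against 6.4 in WT and 3.9 in TET2KD, and on no array on the other. Its measured log2 differences on that probe were 1.82 for JAK2V617F against WT and 1.92 for the double mutant against TET2KD. Set against the floors the first was at least 1.42-fold higher and the second gives no fold. Of the 8 remaining genes of the wider dispanin family, Ifitm7 and Ifitm10 included, 5 were compared in JAK2V617F against WT. At least 2-fold higher were 0 and lower 1, against 15.5% and 15.7% of all genes.

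Genes beside the cluster were examined next. Of the 10 protein-coding genes on either side, 17 of 20 could be compared in JAK2V617F against WT. At least 2-fold higher were 2 and lower 4 (15.5% and 15.7% of all genes), with a median of -0.13. In the double mutant against TET2KD, 14 could be compared, with 1 higher, 2 lower (15.8% and 15.5% of all genes) and a median of -0.10. The count that was 2-fold higher or lower on both backgrounds was 0 of 14, where 4.02% of 13373 genes were higher on both. Hras, a signalling GTPase, was 9.36-fold higher in JAK2V617F than in WT on the 1 of its 3 probes that was above background, but 1.02-fold higher in the double mutant than in TET2KD. Hras was also 6.96-fold higher in TET2KD and 7.1-fold higher in the double mutant than in WT, so WT was its low array. Ptdss2, a phosphatidylserine synthase, was below background in WT only. Against WT it was at least 3.85-fold higher in JAK2V617F, 2.69-fold in TET2KD and 4.96-fold in the double mutant. Psmd13, a proteasome subunit, was 2.81-fold lower in JAK2V617F than in WT and 4.94-fold higher in the double mutant than in TET2KD. Sigirr (2.73-fold), Lmntd2 (3.29-fold) and Rassf7 (2.29-fold) were lower in JAK2V617F than in WT. Sirt3 (2.36-fold) and Pgghg (4.32-fold) were lower in the double mutant than in TET2KD. Rnh1 and Lrrc56 passed 2-fold in other comparisons but not in these 2.

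**Figure D4:**
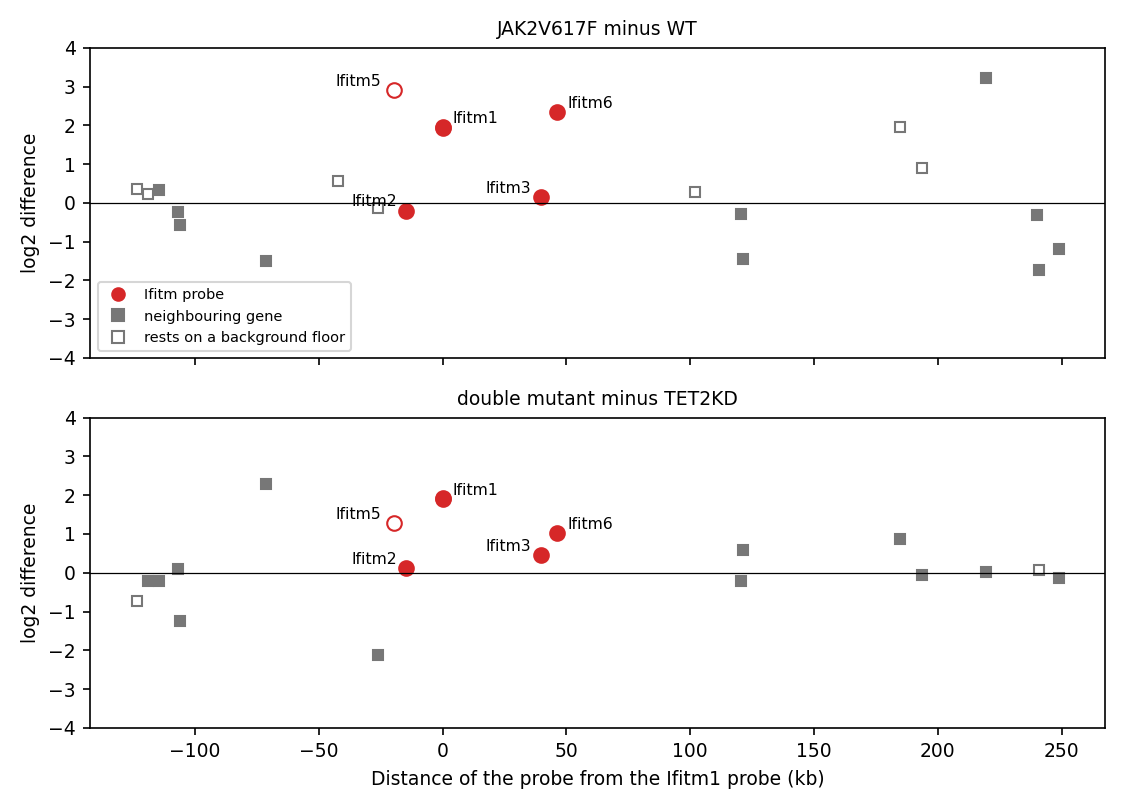
Log2 difference of the Ifitm probes (red circles) and of the neighbouring protein-coding genes (grey squares) against distance from the Ifitm1 probe in kb, for JAK2V617F minus WT above and the double mutant minus TET2KD below. Open symbols rest on a background floor. Ifitm1, Ifitm5 and Ifitm6 are above 1 in both panels and no neighbouring gene is.

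The genes that interferon induces included higher and lower ones on the JAK2V617F arrays, as all genes did. Of 37 interferon-stimulated genes, 32 were compared in JAK2V617F against WT. At least 2-fold higher were 6 and lower 7 (15.5% and 15.7% of all genes), with a median of -0.14. In the double mutant against TET2KD, 7 were higher, 6 lower (15.8% and 15.5% of all genes) and the median was 0.46. On both backgrounds Ifi35, Gbp3 and Cxcl10 were higher and Ifit3, Oas3, Rsad2 and Gbp2 lower. Cxcl10, a chemokine, gave 49.6 in WT, 55.7 in TET2KD, 243.8 with JAK2V617F alone and 304.6 in the double mutant as a mean of 2 probes, an order much like that of Ifitm1. Rsad2, the antiviral enzyme viperin, gave 648.6, 151.4, 82.4 and 69.3, with WT highest. Oas3, a sensor of double-stranded RNA, was 6.02-fold lower in JAK2V617F than in WT and 7.71-fold lower in the double mutant than in TET2KD. Tap1, a peptide transporter, was 13.1-fold higher in JAK2V617F than in WT but 1.14-fold higher in the double mutant than in TET2KD. Ifit1, Ifit2, Ifi44 and Mx2 were below background on all 4 arrays.

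**Figure D5:**
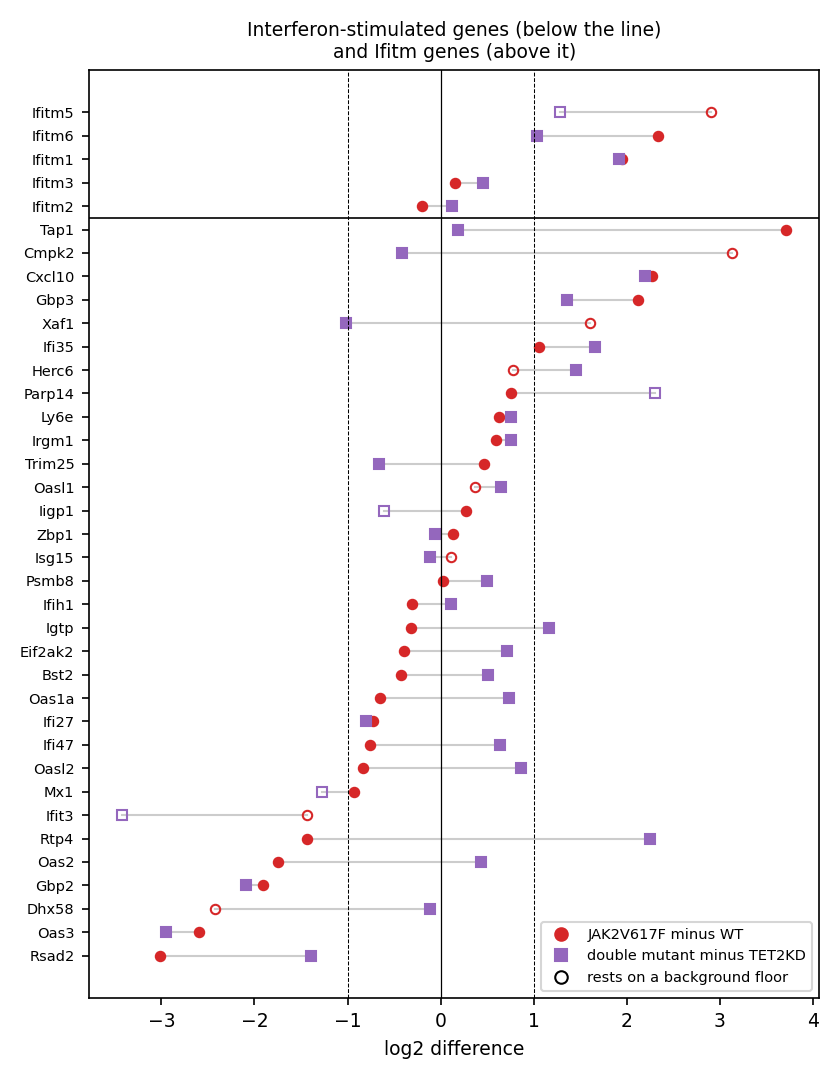
Log2 differences of 32 interferon-stimulated genes (below the line, ordered by JAK2V617F minus WT) and the 5 Ifitm genes (above it). Circles are JAK2V617F minus WT, squares the double mutant minus TET2KD, and open symbols rest on a background floor. The interferon-stimulated genes lie on both sides of 0, from -3.01 (Rsad2) to 3.71 (Tap1) in JAK2V617F minus WT.

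Upstream of them, 18 genes of interferon receptors and signalling were listed. In JAK2V617F against WT, 3 of 16 compared were at least 2-fold higher, 1 lower (15.5% and 15.7% of all genes), with a median of 0.15. In the double mutant against TET2KD, 5 of 17 were higher, 4 lower (15.8% and 15.5% of all genes), with a median of 0.12. Irf8, a transcription factor of the monocyte lineage, was the single gene higher on both, with 97.6 in WT, 168.2 in TET2KD, 375.7 with JAK2V617F alone and 866.0 in the double mutant. Ifngr2, a chain of the interferon gamma receptor, was 2.59-fold lower in JAK2V617F than in WT and 4.30-fold higher in the double mutant than in TET2KD. Socs3, a feedback inhibitor, was 1.18-fold and 4.48-fold higher in these comparisons.

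Of 8 JAK-STAT5 feedback genes and targets, 3 were at least 2-fold higher in each of the JAK2V617F comparisons (15.5% and 15.8% of all genes). The medians were 0.46 and 0.81. Socs2 and Osm were higher in both, but Socs2 was below background in WT and Osm in WT and TET2KD. Their folds rest wholly or partly on background floors, and they entered through the arrays where they were high. Myc was 1.47-fold and 1.97-fold higher, Pim1 1.32-fold lower and 2.23-fold higher, Pim2 1.03-fold higher and 3.70-fold lower, and Cish 1.29-fold and 1.57-fold higher. Among 14 known partners and modifiers of IFITM proteins, 12 were compared in JAK2V617F against WT. At least 2-fold higher were 3 and lower 2 (15.5% and 15.7% of all genes). In the double mutant against TET2KD, 0 of 13 were higher and 5 lower (15.8% and 15.5% of all genes), with a median of -0.13. Zmpste24, a protease that IFITM3 binds, gave 60.1 in WT, 408.4 in TET2KD, 760.4 with JAK2V617F alone and 485.3 in the double mutant. Cd81, a tetraspanin that forms a surface complex with IFITM1, gave 1179, 1012, 888.8 and 405.0, lowest in the double mutant. Zdhhc7, a palmitoyltransferase, was 2.03-fold higher and 2.11-fold lower in the JAK2V617F comparisons, and Setd7, a methyltransferase, 1.51-fold lower and 1.34-fold higher.

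The genes with a profile nearest to Ifitm1 were sought among 7974 genes above background on all 4 arrays, by the root mean square distance of gene-centred log2 signals over the 4 arrays. The nearest were Clec7a, the receptor Dectin-1 of myeloid cells (distance 0.116), the fatty acid binding protein gene Fabp5 (0.174), Aldh9a1 (0.177), Eif2d (0.178), Htt (0.178) and the water channel gene Aqp1 (0.181). Clec7a gave 25.7 in WT, 20.5 in TET2KD, 81.1 with JAK2V617F alone and 95.3 in the double mutant. Its WT and TET2KD signals lie near the floors of 15.8 and 17.3, as does that of Aqp1 in WT (24.2). Around the Ifitm6 signals of these arrays (31.9 and 33.1) the repeated-spot SD was 0.29, so the order of the nearest genes is not settled. Ifitm6 was at 0.40, rank 132, Ifitm3 at 0.83 and Ifitm2 at 1.01, where the median gene stood at 1.04. With 4 points such likeness is a description.

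Markers of other cells also differed between these arrays. Of 10 granulocyte and monocyte progenitor markers, 8 were at least 2-fold higher in JAK2V617F than in WT, 9 in the double mutant and 6 in TET2KD, with 0 lower in each. Of all genes, 15.5%, 15.3% and 15.9% were higher in these comparisons. Their summed levels, in multiples of the 75th percentile, were 67.8 in WT, 117 in TET2KD, 215.5 with JAK2V617F alone and 243 in the double mutant. Against TET2KD, the double mutant had 6 of 10 higher (15.8% of all genes) and 0 lower, with a median of 1.28. Prtn3, Ctsg, Ms4a3, Igsf6 and F13a1 were higher with JAK2V617F on both backgrounds, as Ifitm1 was, and the list was also higher in TET2KD than in WT, where Ifitm1 was not. LSK and stem cell markers summed to 126.6, 97.7, 90.9 and 64.8. In JAK2V617F against WT, 6 of 11 were at least 2-fold lower and 2 higher (15.7% and 15.5% of all genes). Kit, a gene of the sort, was at least 2-fold lower with JAK2V617F on both backgrounds, as were Meis1 and Hlf, while Cd48 was higher on both. Mature neutrophil markers summed to 66.6, 99.3, 21.9 and 69.2, lowest in JAK2V617F, where Ifitm6 was highest, and Mmp9 was below background throughout. Monocyte and macrophage markers were above background for 5, 5, 9 and 8 of 10, with sums of 31.2, 37.5, 36.0 and 41.3. At least 2-fold higher were 3 of 10 in JAK2V617F against WT (median 0.24). In the double mutant they were 6 of 8 against WT (median 1.47) and 5 of 8 against TET2KD (median 1.43, with 1 lower). Of all genes, 15.5%, 15.3% and 15.8% were higher in the same order. Of 8 compared on both backgrounds, 2 (Ccr2 and Cx3cr1) were higher with JAK2V617F on both, 0 lower on both and 1 was 2-fold apart in opposite directions.

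Mast cell, basophil and eosinophil markers summed to 220.6 in WT, 180.4 in TET2KD, 35.0 with JAK2V617F alone and 59.4 in the double mutant. In JAK2V617F against WT, 5 of 8 were at least 2-fold lower and 1 higher (15.7% and 15.5% of all genes). In the double mutant against TET2KD, 4 of 7 were lower and 1 higher (15.5% and 15.8% of all genes). Mcpt8 was higher on both backgrounds and Cpa3, Epx, Prg2 and Ear2 lower. Summed levels ran from 3.5 to 26.7 for erythroid, 5.7 to 19.5 for megakaryocyte, 3.7 to 19.4 for B and plasma cell, 21.3 to 36.6 for T and NK cell and 8.5 to 18.4 for endothelial and stromal markers. Defining markers below background on all 4 arrays included Ms4a1 and Ebf1 of B cells, Cd3d, Cd3g and Cd8a of T cells, Gp6 of platelets, Cdh5 and Pdgfra of endothelium and stroma, and Ms4a2 of mast cells. Other markers were detected in each list. In the order WT, TET2KD, JAK2V617F and double mutant, B and plasma cells had 4, 6, 4 and 6 of 9. T and NK cells had 3, 3, 5 and 5 of 9, and megakaryocytes 7, 6, 7 and 5 of 9. Endothelium and stroma had 6, 8, 5 and 3 of 10, and the mast cell list 6, 5, 7 and 6 of 9. Absence of these cells is therefore not shown. The part of these cells in the Ifitm values was not tested. Weeks after transplantation were alike only in JAK2V617F against WT (16 each). TET2KD (10 weeks) and the double mutant (13 weeks) differed from these and from each other. The part of time in those comparisons and in the interactions was not tested.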

How the data were processed

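The 4 arrays are 1-colour Agilent mouse arrays labelled with Cy3 after NuGEN Ovation Pico amplification, per the labels' protocols. The scanner files hold deposited intensity per spot, background-subtracted and detrended by Feature Extraction (Agilent, 10.7.3.1) per the file headers, with probe coordinates of mm9. The deposited log2 values of the series matrix differed from log2 processed signals by a single constant for each array (0 of 55249 single-spot probes off by more than 0.001), so genes were not centred; column medians were -2.64 to -2.60. The 4 arrays lay on 1 slide and shared 1 scan time.

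Log2 processed signals were scaled to each array's 75th percentile, outlier spots (162 to 199 per array) dropped, and spots averaged by probe and probes by gene. No spot was saturated (0 per array). A gene was compared where a probe was well above background on at least 1 array, with dim sides set to the floor (14.0 to 17.3 in signal). Genes were counted at 2-fold. Probes were named through RefSeq (GRCm38): 28026 by accession, 3418 by symbol, 295 by synonym, 23942 unnamed. Members and lists were chosen with earlier results of these data known. Named were all members, up to 4 genes per pathway list (largest JAK2V617F difference, above background on all arrays), neighbours past 2-fold, the 6 genes most like Ifitm1, and genes past 2-fold on both backgrounds, the last, like Kit and the other genes of the marker lists, chosen after their values were seen. Alternatives were normexp (offset 50), quantile, median and cyclic loess scaling (limma 3.58.1 in R 4.3.3), no filter on dim probes or a filter on both arrays, the brightest probe, the series matrix and 3-fold. Steps were tested on simulated data. Some genes that this rule or the marker lists cover are not reported here.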

Additional observations from a re-analysis of the deposited data

How the results depend on the processing

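The count of members at least 2-fold apart kept its value within 1.5 times under quantile, median and cyclic loess scaling, either other filter on dim probes, the brightest probe and the series matrix values in all 5 comparisons. With normexp it was 1 (of 3) in the double mutant against WT, 1 (of 3) against TET2KD and 0 (of 2) against JAK2V617F, and the count of members higher on both backgrounds was 1 (of 3). This setting changes the correction and adds an offset of 50 at once, and the cause was not tested. At 3-fold the counts were 1, 1 and 0 in the same order, with Ifitm5 taken at its lower bounds against WT and TET2KD. The slide as a block was not run, since all arrays lay on 1 slide, and Ifitm5 had no value over probes above background on both arrays in comparisons with WT or TET2KD.

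Over all genes, normexp gave fewer calls. For TET2KD against WT there were 796 higher and 1082 lower (2277 and 2502 otherwise). For JAK2V617F against WT there were 886 and 910 (2309 and 2342), and for the double mutant against WT 806 and 978 (2273 and 2454). Against JAK2V617F the double mutant had 480 and 618 (1838 and 1908), and against TET2KD 891 and 807 (2297 and 2263). Counts over probes detected on each side of a comparison were 1417 and 1661 in TET2KD against WT, 1438 higher in JAK2V617F and 1389 higher in the double mutant against WT, 1177 and 1255 in the double mutant against JAK2V617F, and 1499 and 1495 against TET2KD. With no filter on dim probes 3779 genes were lower in the double mutant than in WT, and 2821 were higher and 3122 lower than in JAK2V617F. Without that filter the median of all genes moved to -0.18 in JAK2V617F and -0.19 in the double mutant against WT, to -0.19 in the double mutant against TET2KD and to 0.11 in TET2KD against WT.

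No paired analysis was possible because each genotype has 1 array and the labels carry no replicate numbers. Ifitm5 and Ifitm6 lie close to background, which limits their folds; Ifitm1 to Ifitm3 do not.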
